A study of Mus musculus with 24 samples.

Results

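The genes described here are 10 members of the AP-1 group of transcription factors, taken by symbol from a table of 53467 genes counted in mouse liver. They are Jun, Junb and Jund of the Jun family, Fos, Fosb, Fosl1 and Fosl2 of the Fos family, and Atf3, Maff and Batf3 of the related ATF, small Maf and BATF families. All 10 were found in the table and 9 were expressed at a level that could be tested. The 24 livers came from male C57BL/6JAusb mice, 1 library per mouse, aged 14 to 15 weeks when plasmids were given by hydrodynamic tail vein injection (HTVI), a rapid injection of a large volume that carries DNA mainly into hepatocytes. Every mouse, controls included, received 0.8 µg of the Sleeping Beauty (SB) plasmid, which encodes a transposase that inserts plasmid DNA into the genome.

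The 6 groups were SB/AKT/NRas + TAA with 5 mice, SB/AKT/NRas + saline with 4, SB/AKT/c-Met + TAA with 4, SB/AKT/c-Met + saline with 3, SB + TAA with 4 and SB + saline with 4. The oncogene groups received 10 µg of an AKT plasmid with 10 µg of either an NRas or a c-Met plasmid. TAA is thioacetamide, a compound that the liver converts to a hepatotoxin. It was injected intraperitoneally in saline 10 to 11 times over 5 to 6 weeks, from day 8 to 10 after HTVI, with a first dose of 100 mg/kg and later doses of 200 mg/kg, and the other mice received saline alone. The plasmids enter a part of the hepatocytes of a mouse, under general promoters (EF1a for c-Met, CAGGS for NRas), so each library mixes cells with and without the oncogenes. Bulk liver was sequenced, in which fewer cells of a type and less RNA per cell cannot be told apart.

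AP-1 is a dimer of basic leucine zipper proteins. Jun proteins can pair with each other or with Fos and ATF proteins, whereas Fos proteins need a Jun partner to bind DNA. Most of the genes are immediate early genes, which are transcribed within minutes of a growth factor or stress signal through the ERK, JNK and p38 kinases, and in mouse liver Jun is known for its roles in hepatocyte survival, regeneration and tumour formation.

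Values are CPM, the counts of a gene relative to its library's total scaled by the trimmed mean of M-values (TMM), from 2152510 to 3399247 counts per liver. A gene was called when edgeR's quasi-likelihood test gave a Benjamini-Hochberg adjusted p under 0.05 over 19381 genes and the fold change exceeded 1 on the log2 scale. Fold changes are log2 of the first group over the second, with the standard error. The scaling factors were 0.7719 to 0.8175 in SB + saline and 0.8457 to 1.194 in the other groups, and the calls with library size alone are given among the processing alternatives. Alignment records assigned to genes were 15.6% to 16.7% in SB + saline, 15.9% to 20.6% in SB/AKT/c-Met + saline and 13.75% to 23.9% in SB/AKT/NRas + saline. They were 20.7% to 23.1% in SB + TAA, 19.9% to 22.5% in SB/AKT/c-Met + TAA and 19.4% to 22.7% in SB/AKT/NRas + TAA. The part of this share in the calls was not tested. Hepatocyte markers summed to 48752 CPM or more in every liver. Human NRAS, counted from the injected plasmid, was at 12.3 to 218 CPM in the 9 SB/AKT/NRas livers and at most 1.14 CPM in the SB + saline livers.

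Of these livers, 2 stood apart and bear on the results. SB + TAA replicate 4 held skeletal muscle transcripts, with 7221 CPM summed over 8 markers against 7.89 to 9.41 CPM in the other SB + TAA livers. SB/AKT/NRas + saline replicate 1 had the lowest human NRAS of the 9 livers (12.3 CPM) and was the lowest of its group for 7 of the 10 AP-1 genes. Its scaling factor was 0.8457, and its share of assigned records (13.75%) was the lowest of the 24 livers.

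Jun and Atf3 were called in more comparisons than any other member, and their promoters were read from RefSeq sequence (GRCm38.p6), which held windows for 9 of the 10 genes (11 windows in all, Fosl1 not matched). Each window runs from 250 bases before to 50 bases after a start site. The letters searched on both strands were TGACTCA (the phorbol ester response element bound by Jun and Fos dimers), TGACGTCA (the cyclic AMP response element bound by ATF and Jun dimers), and the variants TGACATCA and TGACGTAA, both chosen after these windows were read. No matches overlapped. The Jun window on chromosome 4 (chr4:95052173-95052472, minus strand) and the Atf3 window on chromosome 1 (chr1:191183284-191183583, minus strand) are printed 5′ to 3′ with the match in capitals.
Jun: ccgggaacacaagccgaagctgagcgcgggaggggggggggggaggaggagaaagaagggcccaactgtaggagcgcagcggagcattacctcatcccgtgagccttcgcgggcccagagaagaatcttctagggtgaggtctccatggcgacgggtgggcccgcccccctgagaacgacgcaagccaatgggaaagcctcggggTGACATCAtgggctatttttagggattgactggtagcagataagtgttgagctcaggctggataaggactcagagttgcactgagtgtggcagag
Atf3: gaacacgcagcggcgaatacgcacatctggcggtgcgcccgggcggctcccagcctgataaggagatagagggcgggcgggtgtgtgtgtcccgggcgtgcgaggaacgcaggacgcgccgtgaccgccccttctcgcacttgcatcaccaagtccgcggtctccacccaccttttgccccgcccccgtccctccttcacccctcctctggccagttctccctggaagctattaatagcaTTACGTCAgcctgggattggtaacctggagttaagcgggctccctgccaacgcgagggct
The Jun match starts 45 bases before the start site and is TGACATCA, which 3.62% of 32851 mouse windows of this length held. The Atf3 match starts 10 bases before the start site and is TGACGTAA on the opposite strand, held by 0.499% of windows. Maff had TGACGTCA in 1 window (1.79% of all windows) and TGACATCA in another. The other 6 genes matched none of the 4 strings, and 10.8% of all windows matched at least 1. A match describes letters only.

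Against SB + saline, 8 or all 9 of the AP-1 genes tested had a positive fold change in each treated group, and few passed the test. In SB + TAA, 2 of 9 genes tested were called higher (Jun and Fosl1), where 2.73% of all genes were called higher. In SB/AKT/c-Met + saline, 1 of 9 was called (Jun), against 0.578% of all genes. In SB/AKT/NRas + saline, 3 of 9 were called (Jun, Atf3 and Maff), against 4.71%. Jun and Atf3 were called in SB/AKT/c-Met + TAA, where 2.31% of all genes were called higher, and in SB/AKT/NRas + TAA, where 4.21% were. No member was called lower, where the share of all genes called lower was 1.44% in SB + TAA, 0.0413% for SB/AKT/c-Met + saline, 1.32% for SB/AKT/NRas + saline, 0.697% for SB/AKT/c-Met + TAA and 1.72% for SB/AKT/NRas + TAA. The median log2 fold change of the 9 genes was 1.09 in SB + TAA, 0.97 for SB/AKT/c-Met + saline, 1.596 for SB/AKT/NRas + saline, 1.37 for SB/AKT/c-Met + TAA and 1.22 for SB/AKT/NRas + TAA, where the median of all genes lay between 0.02 and 0.09. These 5 comparisons share the 4 SB + saline livers.

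**Figure D1:**
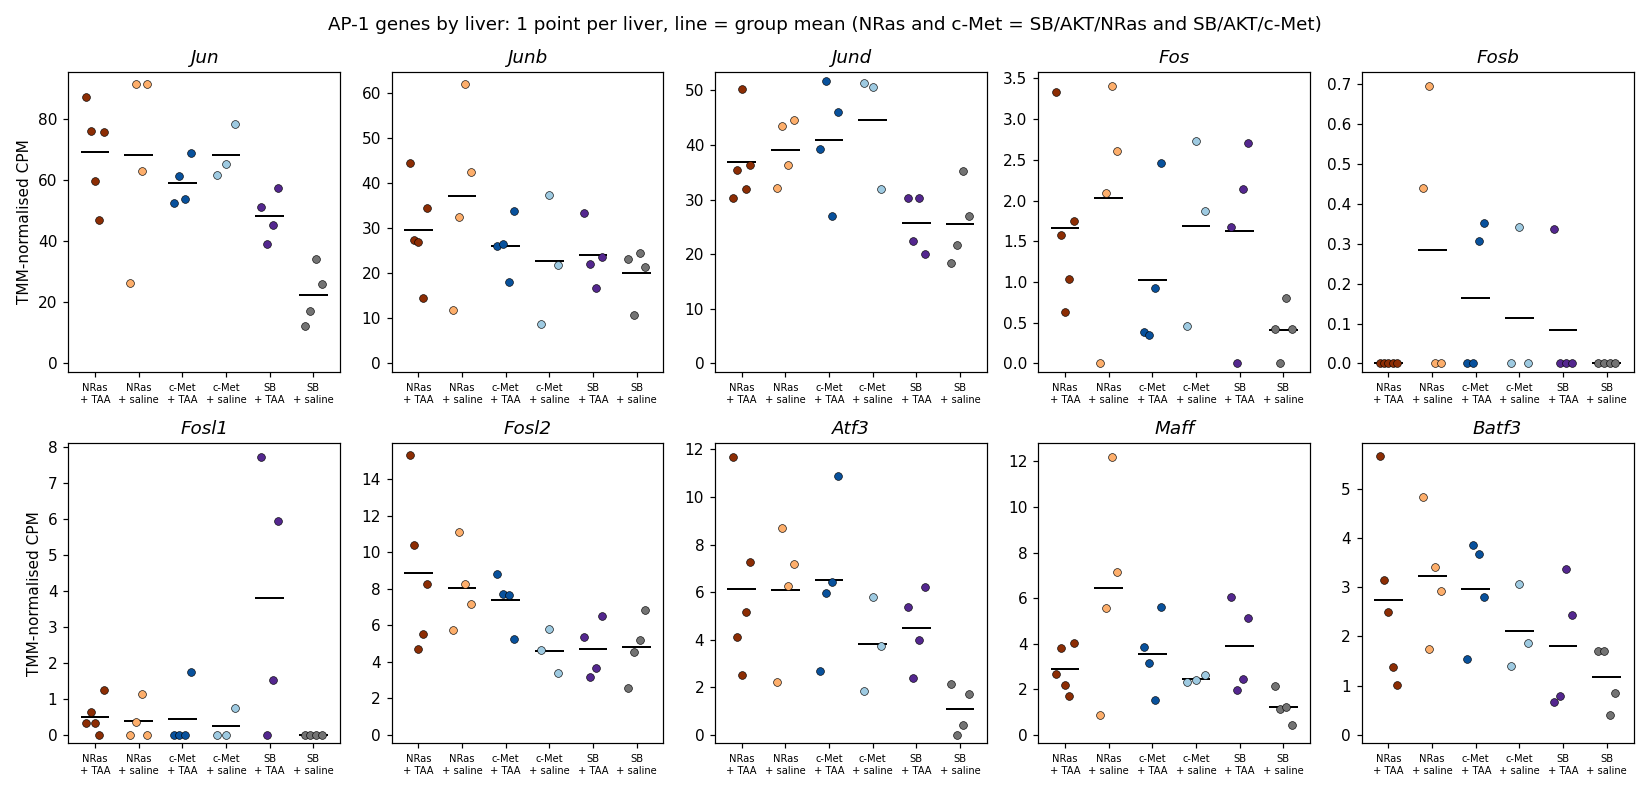
TMM-normalised CPM of the 10 AP-1 genes, 1 panel per gene, with 1 point per liver and a line at the group mean; groups run from SB/AKT/NRas + TAA at the left to SB + saline at the right, and each panel has its own linear axis. Jun lay between 12.4 and 34.1 CPM in SB + saline livers, below every liver of the other groups but SB/AKT/NRas + saline replicate 1 (26.4 CPM).

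Jun, the best known Jun family gene, lies at chr4:95049034-95052222 on the minus strand (ENSMUSG00000052684). It was higher in all 5 treated groups than in SB + saline, and no comparison between treated groups passed the test. Jun was at 87.1, 76.1, 59.6, 47.1 and 75.7 CPM in SB/AKT/NRas + TAA livers and at 26.4, 91.5, 63.1 and 91.4 CPM in SB/AKT/NRas + saline livers. SB/AKT/c-Met + TAA livers had 52.6, 61.2, 54.0 and 68.8 CPM, and SB/AKT/c-Met + saline livers had 61.6, 65.3 and 78.4 CPM. SB + TAA livers had 51.1, 39.1, 45.3 and 57.3 CPM, against 12.4, 17.1, 34.1 and 26.1 CPM in SB + saline livers. Of the 20 treated livers, 19 lay above all SB + saline livers, and the exception was SB/AKT/NRas + saline replicate 1. Groups that did not overlap SB + saline were therefore 4 of 5 for Jun, and the share of all genes that lay wholly above SB + saline was 6.52% in SB + TAA, 5.28% for SB/AKT/c-Met + saline, 7.22% for SB/AKT/c-Met + TAA and 7.89% for SB/AKT/NRas + TAA.

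The log2 fold change of Jun over SB + saline was 1.61 ± 0.28 (edgeR adjusted p = 4.75e-04) for SB/AKT/NRas + TAA. It was 1.596 ± 0.29 (edgeR adjusted p = 0.00124) for SB/AKT/NRas + saline and 1.39 ± 0.29 in SB/AKT/c-Met + TAA (edgeR adjusted p = 0.00523). In SB/AKT/c-Met + saline it was 1.598 ± 0.31 (edgeR adjusted p = 0.00899) and in SB + TAA 1.09 ± 0.29 (edgeR adjusted p = 0.0243). The calls in both SB/AKT/NRas groups and in SB/AKT/c-Met + TAA held when any of the 24 livers was left out. The call in SB/AKT/c-Met + saline was lost without replicate 3 of that group (adjusted p = 0.0555, edgeR). The call in SB + TAA was lost without SB + saline replicate 1 or 2 or without SB + TAA replicate 1 or 4, with edgeR adjusted p of 0.0569 to 0.0983, and without replicate 4 the fold change was 0.996 on the log2 scale. Without both that liver and SB/AKT/NRas + saline replicate 1 it was 0.97 (edgeR adjusted p = 0.0197), under the fold threshold.

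By mean, the order of the groups for Jun was SB/AKT/NRas + TAA (69.1 ± 15.7 CPM, SD), SB/AKT/c-Met + saline (68.4 ± 8.82 CPM), SB/AKT/NRas + saline (68.1 ± 30.9 CPM), SB/AKT/c-Met + TAA (59.2 ± 7.45 CPM), SB + TAA (48.2 ± 7.83 CPM) and SB + saline (22.4 ± 9.64 CPM). No tested pair among the first 5 was called by edgeR. TAA added to an oncogene group changed Jun by 0.02 ± 0.26 on the log2 scale in SB/AKT/NRas livers and by -0.21 ± 0.29 in SB/AKT/c-Met livers (edgeR adjusted p = 0.997 and 0.899). Oncogenes added to TAA gave 0.52 ± 0.26 for SB/AKT/NRas + TAA and 0.29 ± 0.27 for SB/AKT/c-Met + TAA, each over SB + TAA (edgeR adjusted p = 0.465 and 0.798). Over the 6 groups Jun passed the F test of edgeR (adjusted p = 0.0034), as did Fosl1, so 2 of 9 members passed where 9.01% of all genes did.

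The genes whose pattern was most like that of Jun were sought among 9251 genes with a mean of at least 5 CPM, by Pearson's r of log2 CPM over the 24 livers. They were Cxadr (r = 0.92), which encodes the coxsackievirus and adenovirus receptor of tight junctions, Ifi27l2b (r = 0.90) and Otud7b (r = 0.89), a deubiquitinating enzyme. The 24 points share the 6 groups and the scaling factors, and the values are a description. No other called member reached 5 CPM on average.

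Junb and Jund, the other Jun family genes, were called in no comparison. Junb (chr8:84974484-84978718) was at 44.4, 27.5, 26.97, 14.4 and 34.3 CPM in SB/AKT/NRas + TAA, 11.9, 32.4, 61.9 and 42.3 CPM in SB/AKT/NRas + saline and 23.1, 10.8, 24.5 and 21.4 CPM in SB + saline livers. Of the SB/AKT/NRas + saline livers, replicate 1 lay inside the SB + saline range and the other 3 above it. The log2 fold change was 0.90 ± 0.38 over SB + saline (edgeR adjusted p = 0.155), and 1.16 ± 0.34 without replicate 1 (edgeR adjusted p = 0.0198), when Junb was called. In the other treated groups Junb averaged 22.6 to 29.5 CPM, and all of them overlapped SB + saline.

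Jund (chr8:70698949-70700616), often described as a brake on proliferation, had higher means in the 4 oncogene groups than in the SB groups, with overlapping livers in most pairs. It averaged 36.8 ± 7.84 CPM in SB/AKT/NRas + TAA, 39.1 ± 5.94 CPM in SB/AKT/NRas + saline, 41.0 ± 10.6 CPM with c-Met and TAA (SB/AKT/c-Met + TAA) and 44.6 ± 11.0 CPM in SB/AKT/c-Met + saline. The SB groups averaged 25.8 ± 5.30 CPM with TAA and 25.6 ± 7.38 CPM with saline (SD). No fold change of Jund reached 1 on the log2 scale. The largest was 0.79 ± 0.24 in SB/AKT/c-Met + saline over SB + saline (edgeR adjusted p = 0.168), and the F test over the 6 groups gave an adjusted p of 0.0517 (edgeR). The 5 SB/AKT/NRas + TAA livers (30.4 to 50.2 CPM) all lay above the 4 SB + TAA livers (20.01 to 30.3 CPM), as did 2.89% of all genes, at 0.52 ± 0.21 on the log2 scale (edgeR adjusted p = 0.321).

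Among the Fos family, Fosl1 was the only member called, and only in SB + TAA. Fosl1 encodes Fra-1, which lacks the transactivation domain of Fos and is itself a target of AP-1 (chr19:5447703-5455945, plus strand). SB + TAA livers had 23, 0, 5 and 22 counts (7.73, 0, 1.53 and 5.95 CPM), against 0 counts in all 4 SB + saline livers. Replicate 2 of SB + TAA had no count either, so the groups touched at 0. The mean of 3.80 CPM in SB + TAA was at least 11.3-fold higher than the level that 3 counts over the 4 SB + saline livers would give (edgeR adjusted p = 0.0217). The call was lost without SB + TAA replicate 1 or 4 or without any 1 of the SB + saline livers (edgeR adjusted p = 0.0533 to 0.0638). DESeq2 gave Fosl1 no adjusted p, and limma-voom kept the call (adjusted p = 0.0365). Replicate 4 is the liver with skeletal muscle transcripts, while replicate 1, with the highest Fosl1, had 9.41 CPM of them.

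In the other groups Fosl1 had 9 counts over 5 SB/AKT/NRas + TAA livers, 5 over 4 SB/AKT/NRas + saline livers, 5 in 1 of 4 SB/AKT/c-Met + TAA livers and 2 in 1 of 3 SB/AKT/c-Met + saline livers. The log2 fold change over SB + TAA was -2.75 ± 0.91 (edgeR adjusted p = 0.168) for SB/AKT/NRas + TAA and -3.03 ± 1.04 (edgeR adjusted p = 0.301) for SB/AKT/c-Met + TAA, neither of them called.

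Fos, the gene that gave the family its name (chr12:85473890-85477273), had 105 counts over all livers and was called in no comparison. It was at 0, 2.09, 3.41 and 2.60 CPM in SB/AKT/NRas + saline and at 1.68, 0, 2.14 and 2.70 CPM in SB + TAA, against 0.428, 0, 0.802 and 0.428 CPM in SB + saline livers. A liver without counts was found in each of the 3 groups, so they overlapped. Its log2 fold change over SB + saline was 2.15 ± 0.90 (edgeR adjusted p = 0.146) for SB/AKT/NRas + saline, and 2.49 ± 0.83 without replicate 1, when it was called (edgeR adjusted p = 0.0397). In SB + TAA it was 1.84 ± 0.92 (edgeR adjusted p = 0.255).

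Fosl2, which encodes Fra-2 (chr5:32135801-32157842), averaged 8.85 ± 4.29 CPM in SB/AKT/NRas + TAA, 8.06 ± 2.29 CPM in SB/AKT/NRas + saline and 7.38 ± 1.51 CPM in SB/AKT/c-Met + TAA. It averaged 4.61 ± 1.22 CPM in SB/AKT/c-Met + saline, 4.67 ± 1.54 CPM in SB + TAA and 4.79 ± 1.77 CPM in SB + saline (SD). All groups overlapped SB + saline and none was called, with log2 fold changes of 0.87 ± 0.34 (edgeR adjusted p = 0.108) for SB/AKT/NRas + TAA and -0.02 ± 0.38 in SB + TAA (edgeR adjusted p = 0.994). Fosb (chr7:19302696-19310051) had 7 counts in 6 livers and was not tested. The 5 SB/AKT/NRas + TAA and 4 SB + saline livers had none, which means that Fosb was not detectable there at this depth.

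**Figure D2:**
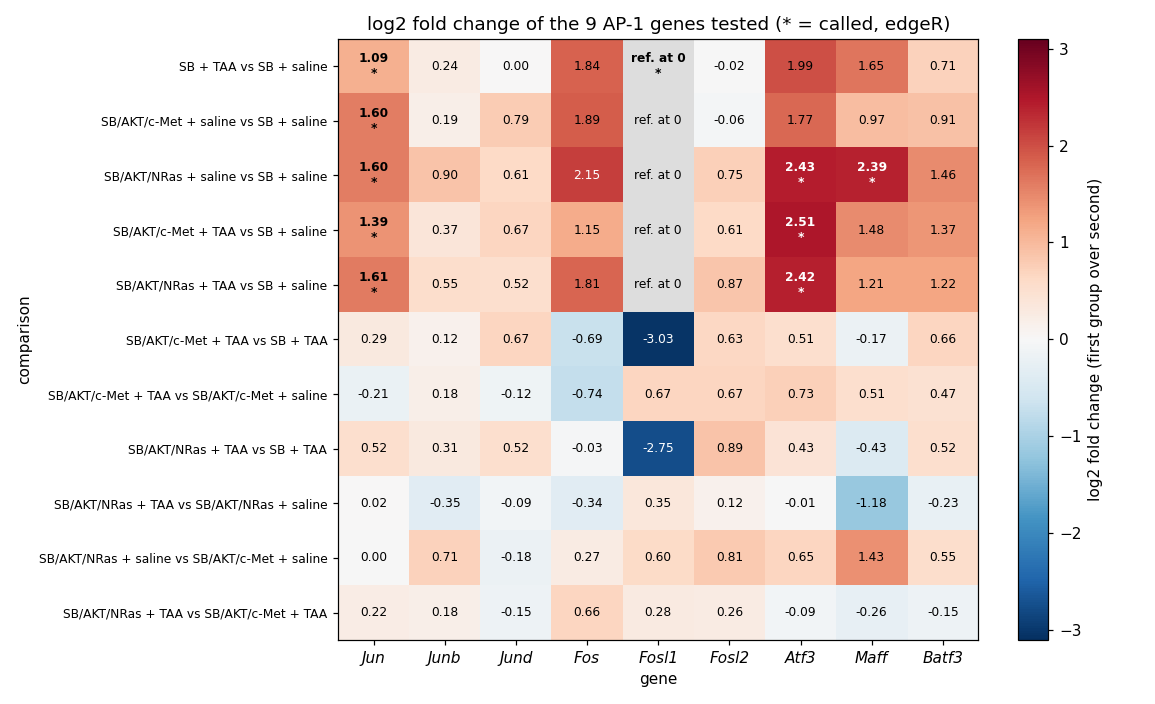
Fitted log2 fold changes of the 9 genes tested (columns) in the 11 comparisons of groups (rows), first group over second, with an asterisk and bold type where called; grey cells mark Fosl1 against SB + saline, where all reference livers are at 0. Calls stand only in the 5 rows against SB + saline, and Jun is called in each of them (1.09 to 1.61).

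Atf3, a stress-induced ATF family gene that pairs with Jun proteins and can repress or activate, rose in 3 treated groups (chr1:191170296-191218039, minus strand). SB/AKT/NRas + TAA livers had 11.7, 4.10, 2.51, 5.16 and 7.27 CPM, and SB/AKT/NRas + saline livers had 2.20, 8.70, 6.25 and 7.16 CPM. SB/AKT/c-Met + TAA livers had 2.69, 5.98, 6.44 and 10.9 CPM. SB + saline livers had 2.14, 0, 0.401 and 1.71 CPM, below all livers of those 3 groups. Of all genes, 7.89%, 5.07% and 7.22% lay wholly above SB + saline in these groups, in the order given. The log2 fold change of Atf3 was 2.42 ± 0.60 (edgeR adjusted p = 0.00994) for SB/AKT/NRas + TAA, 2.43 ± 0.62 (edgeR adjusted p = 0.0152) for SB/AKT/NRas + saline and 2.51 ± 0.62 in SB/AKT/c-Met + TAA (edgeR adjusted p = 0.0176).

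With 10 counts of Atf3 in all of SB + saline, single livers weighed on these calls. The call in SB/AKT/NRas + TAA held without any 1 liver. The call in SB/AKT/NRas + saline was lost without SB + saline replicate 3 (edgeR adjusted p = 0.0558), and the call in SB/AKT/c-Met + TAA was lost without SB + saline replicate 2 or 3 or without replicate 4 of its own group (edgeR adjusted p = 0.0638 to 0.0778). In SB + TAA, Atf3 was at 5.38, 2.37, 3.98 and 6.22 CPM, also above all SB + saline livers, as were 6.52% of all genes. The test was not passed there (1.99 ± 0.64 on the log2 scale, edgeR adjusted p = 0.0617). DESeq2 did call Atf3 there, and so did edgeR without SB/AKT/NRas + saline replicate 1 (adjusted p = 0.0421). SB/AKT/c-Met + saline livers had 1.85, 5.81 and 3.75 CPM and overlapped SB + saline (1.77 ± 0.70, edgeR adjusted p = 0.365).

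Maff encodes a small Maf protein without a transactivation domain, which pairs with NRF2 and related factors (chr15:79347541-79359072, plus strand). It was called in SB/AKT/NRas + saline alone. Those livers had 0.879, 5.57, 12.2 and 7.16 CPM, against 2.14, 1.14, 1.20 and 0.428 CPM in SB + saline livers. Replicate 1 lay inside the SB + saline range and the other 3 above it. The log2 fold change was 2.39 ± 0.58 (edgeR adjusted p = 0.00989), and 2.71 ± 0.50 without replicate 1 (edgeR adjusted p = 3.43e-04). The call was lost without replicate 3, the liver with the most human NRAS (218 CPM), at an edgeR adjusted p of 0.0812, and with limma-voom (adjusted p = 0.0659). With TAA as well, Maff in SB/AKT/NRas + TAA livers was at 2.67, 3.79, 2.19, 1.72 and 4.01 CPM.

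SB + TAA livers had 6.05, 1.97, 2.45 and 5.14 CPM of Maff, and the fold change over SB + saline was 1.65 ± 0.61 on the log2 scale (edgeR adjusted p = 0.109). The 3 SB/AKT/c-Met + saline livers lay between 2.32 and 2.62 CPM, just above all SB + saline livers, as for 5.28% of all genes (0.97 ± 0.70 on the log2 scale, edgeR adjusted p = 0.659). Mafk, another small Maf gene and the only called member of a list of 12 AP-1 partners and relatives, averaged 9.08 ± 3.71 CPM in SB/AKT/NRas + saline, 8.59 ± 2.21 CPM in SB/AKT/NRas + TAA and 8.47 ± 4.52 CPM in SB + TAA, against 2.85 ± 1.63 CPM in SB + saline (SD). Its log2 fold changes in the same order were 1.61 ± 0.42, 1.51 ± 0.41 and 1.504 ± 0.42 (edgeR adjusted p = 0.0168, 0.0167 and 0.0323). That is 1 of 12 listed genes in each comparison, where 6.03%, 5.92% and 4.17% of all genes were called, in the same order. Without SB + TAA replicate 4 Mafk was not called in SB + TAA.

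Batf3, which conventional dendritic cells of the mouse need to develop, lies beside Atf3 (chr1:191097847-191108945, plus strand) and was called in no comparison. The SB/AKT/NRas + saline livers had 4.84, 1.74, 3.41 and 2.93 CPM, against 1.71, 1.71, 0.401 and 0.856 CPM in SB + saline livers. The lowest of the first group was just above the highest of the second, as for 5.07% of all genes in that comparison. The log2 fold change was 1.46 ± 0.61 (edgeR adjusted p = 0.141). Dendritic cell markers summed over 8 genes came to 14.9 to 21.3 CPM in SB/AKT/NRas + saline and 4.55 to 15.0 CPM in SB + saline, where Flt3 was at 0, and their part in the result was not tested.

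**Figure D3:**
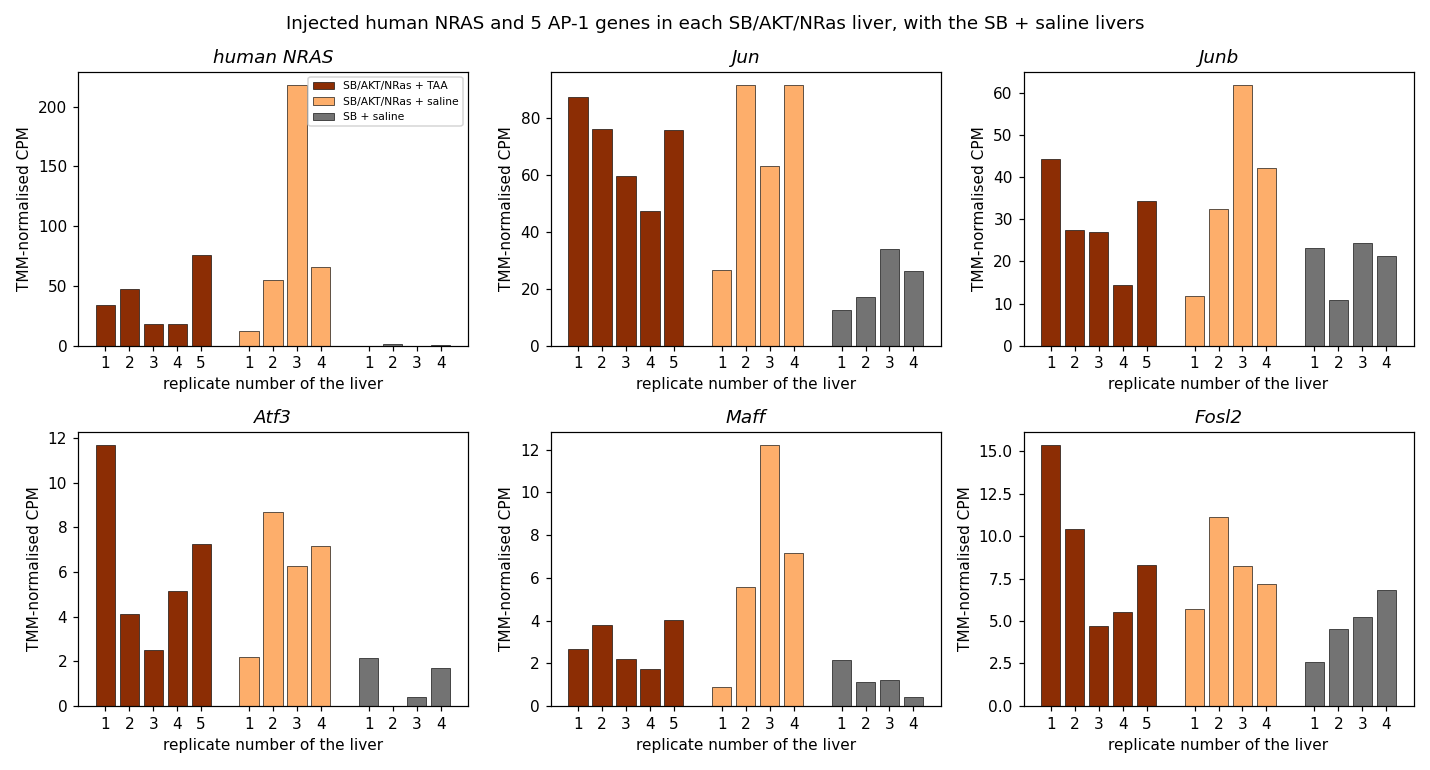
TMM-normalised CPM of human NRAS and of Jun, Junb, Atf3, Maff and Fosl2 in each SB/AKT/NRas + TAA, SB/AKT/NRas + saline and SB + saline liver, as bars from 0 by replicate number. Replicate 1 of SB/AKT/NRas + saline has the least human NRAS of the 9 oncogene livers (12.3 CPM) and Jun, Junb and Maff values inside the SB + saline range.

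Without SB/AKT/NRas + saline replicate 1, 5 of the 9 AP-1 genes were called in that group over SB + saline (Jun, Junb, Fos, Atf3 and Maff), and 10.2% of all genes were called. Low AP-1 values were part of why this liver was noted, so the added calls are not independent support. The fit shares 1 estimate of the spread over all groups, so the liver also moved other comparisons. In SB + TAA 4 members were then called (Jun, Fosl1, Atf3 and Maff), as were 4.96% of all genes. In SB + TAA without its replicate 4 none was called by edgeR, with Jun at an adjusted p of 0.0881 and Fosl1 at 0.0625, and 1.92% of all genes were called. Without both livers 1 member was called there (Fosl1), beside 2.61% of all genes.

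No member was called in the 6 comparisons among treated groups by edgeR. In SB/AKT/c-Met + TAA over SB + TAA, 2 of 9 genes had an unadjusted edgeR p under 0.05, as did 8.91% of all genes, and 0.397% of all genes were called. Over SB/AKT/c-Met + saline that number was 0, against 8.69% of all genes, of which 0.196% were called. For SB/AKT/NRas + TAA it was 3 over SB + TAA, against 11.2% of all genes (1.24% called), and 1 over SB/AKT/NRas + saline, against 8.65% (0.16% called). SB/AKT/NRas + saline over SB/AKT/c-Met + saline had 2 such genes, against 9.45% of all genes (0.134% called). SB/AKT/NRas + TAA over SB/AKT/c-Met + TAA had 0, against 4.61% (0.0103% called). DESeq2 and limma-voom called no member in these 6 comparisons.

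The effect of TAA itself was compared between oncogene and SB livers, and no member was called. The difference between the TAA effect in SB/AKT/NRas livers and that in SB livers was negative for 8 of 9 genes, with a median of -1.08 on the log2 scale (all genes: -0.11). It was negative for 8 of 9 in SB/AKT/c-Met livers, with a median of -1.14 (all genes: -0.06). Both contain the SB + TAA and SB + saline livers. Unadjusted edgeR p was under 0.05 for 4 genes in SB/AKT/NRas livers, as for 14.9% of all genes, and 0.748% of all genes were called. It was under 0.05 for 2 genes in SB/AKT/c-Met livers, as for 8.45% of all genes, and 0.0103% were called. Maff had the difference nearest to a call, -2.83 ± 0.75 in SB/AKT/NRas livers (edgeR adjusted p = 0.069), and was called by DESeq2 and by edgeR without SB/AKT/NRas + saline replicate 1 (-3.15 ± 0.64, adjusted p = 0.0045). Without that liver Jun was called as well (-1.33 ± 0.32, edgeR adjusted p = 0.0143), where the value with all livers was -1.08 ± 0.39 (edgeR adjusted p = 0.186). Of all genes, 4.44% were called for this difference without that liver. Its low AP-1 values were part of why it was noted, so these added calls are not independent support.

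Other immediate early genes, which like Fos and Jun are switched on within minutes of a stimulus, were read as a list. Of 16 such genes, 6 were called higher in SB/AKT/NRas + saline than in SB + saline (Klf6, Btg2, Ier3, Egr1, Klf4 and Ier5), 3 in SB/AKT/NRas + TAA, 2 in SB/AKT/c-Met + TAA, 1 in SB + TAA and none in SB/AKT/c-Met + saline, by edgeR. None was called lower. Over all genes the shares called in either direction in these groups were 6.03%, 5.92%, 3.01%, 4.17% and 0.619%, in the same order, and differences between the counts were not tested. Klf6, a zinc finger factor induced in liver injury, averaged 92.9 ± 27.3 CPM in SB/AKT/NRas + TAA, 58.3 ± 31.0 CPM in SB/AKT/NRas + saline, 75.03 ± 17.4 CPM among SB/AKT/c-Met + TAA livers and 63.5 ± 31.6 CPM in SB + TAA, against 11.3 ± 2.53 CPM in SB + saline (SD). It was called in these 4 groups, at log2 fold changes of 2.37 to 3.03. Ier3 averaged 14.7 ± 14.6 CPM in SB/AKT/NRas + saline, with a range of 0 to 34.7 CPM, against 0.729 ± 0.513 CPM in SB + saline (4.20 ± 0.87 on the log2 scale, edgeR adjusted p = 0.00341). Egr1, a zinc finger factor induced through ERK and serum response factor, was called in SB/AKT/NRas + saline alone with all livers, at 19.1 ± 10.7 CPM against 3.53 ± 1.62 CPM in SB + saline (2.40 ± 0.60, edgeR adjusted p = 0.0134). The median log2 fold change of the 16 genes was 1.54 for SB/AKT/NRas + saline and 1.04 for SB/AKT/c-Met + saline. Without SB/AKT/NRas + saline replicate 1 the counts were 7 in that group, 4 in SB/AKT/NRas + TAA, 2 for SB/AKT/c-Met + TAA, 4 for SB + TAA and 1 for SB/AKT/c-Met + saline, and without both livers SB + TAA had 1. The shares of all genes called then rose too, to 10.2%, 6.71%, 3.86%, 4.96% and 0.962% in the same order. In SB + TAA without both livers the share was 2.61%. For the difference between TAA effects in SB/AKT/NRas and SB livers no gene of the list was called with all livers or without SB + TAA replicate 4. For that difference 6 were called lower without SB/AKT/NRas + saline replicate 1, where 4.44% of all genes were called, and 3 without both livers, where 2.81% were.

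Genes known as AP-1 targets in other tissues were read against the same shares of all genes. Of 13 tested, 6 were called higher in SB/AKT/NRas + saline than in SB + saline (among them Spp1, Ccnd1, Timp1, Cd44 and Ccl2), 2 in SB/AKT/NRas + TAA, 1 in SB/AKT/c-Met + TAA, 2 in SB + TAA and none in SB/AKT/c-Met + saline. Without SB/AKT/NRas + saline replicate 1 the first count was 8, SB/AKT/NRas + TAA had 4 and SB + TAA had 4, while SB + TAA had 1 without its replicate 4 and 2 without both livers. The shares of all genes called beside these 5 counts were 10.2%, 6.71%, 4.96%, 1.92% and 2.61%, in the same order. Spp1, which encodes the secreted protein osteopontin and is also a bile duct marker, averaged 3011 ± 3845 CPM in SB/AKT/NRas + saline (98.5 to 8582 CPM) and 1578 ± 1805 CPM in SB/AKT/NRas + TAA, against 44.9 ± 4.10 CPM in SB + saline (SD). Bile duct markers, Spp1 among them, summed to 150.4 to 8802 CPM in SB/AKT/NRas + saline and 56.1 to 96.2 CPM in SB + saline. They summed to 224 to 4757 CPM in SB/AKT/NRas + TAA and 130 to 241 CPM in SB + TAA. In the c-Met groups the sums were 45.4 to 380 CPM with saline and 91.5 to 632 CPM with TAA. Spp1 alone reached 8582 CPM in SB/AKT/NRas + saline, so the highest sum was mostly Spp1 itself and is no separate measure of bile duct cells. The part of these cells in the Spp1 values was not tested. Timp1, an inhibitor of matrix metalloproteinases, averaged 22.7 ± 26.2 CPM in SB/AKT/NRas + saline and 0.535 ± 0.810 CPM in SB + saline (5.27 ± 1.04 on the log2 scale, edgeR adjusted p = 0.00229).

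Ccnd1, which encodes cyclin D1 and drives entry into the cell cycle, was the target called most often. It averaged 129.5 ± 37.2 CPM in SB/AKT/NRas + TAA, 133 ± 79.8 CPM in SB/AKT/NRas + saline, 128 ± 58.7 CPM among SB/AKT/c-Met + TAA livers and 204 ± 65.0 CPM in SB + TAA, against 38.2 ± 13.3 CPM in SB + saline (SD), and was called in all 4. In SB/AKT/c-Met + saline it averaged 61.8 ± 17.1 CPM and was not called. Of the 13 targets, Ccnd1 and the chemokine Ccl2 were also called lower for the difference between the TAA effect in SB/AKT/NRas livers and that in SB livers, and Ccl2 was not called there without SB + TAA replicate 4. The count was 5 without SB/AKT/NRas + saline replicate 1 and 3 without both livers. Of all genes, 0.748% were called for that difference with all livers, 4.44% without that NRas liver and 2.81% without both.

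**Figure D4:**
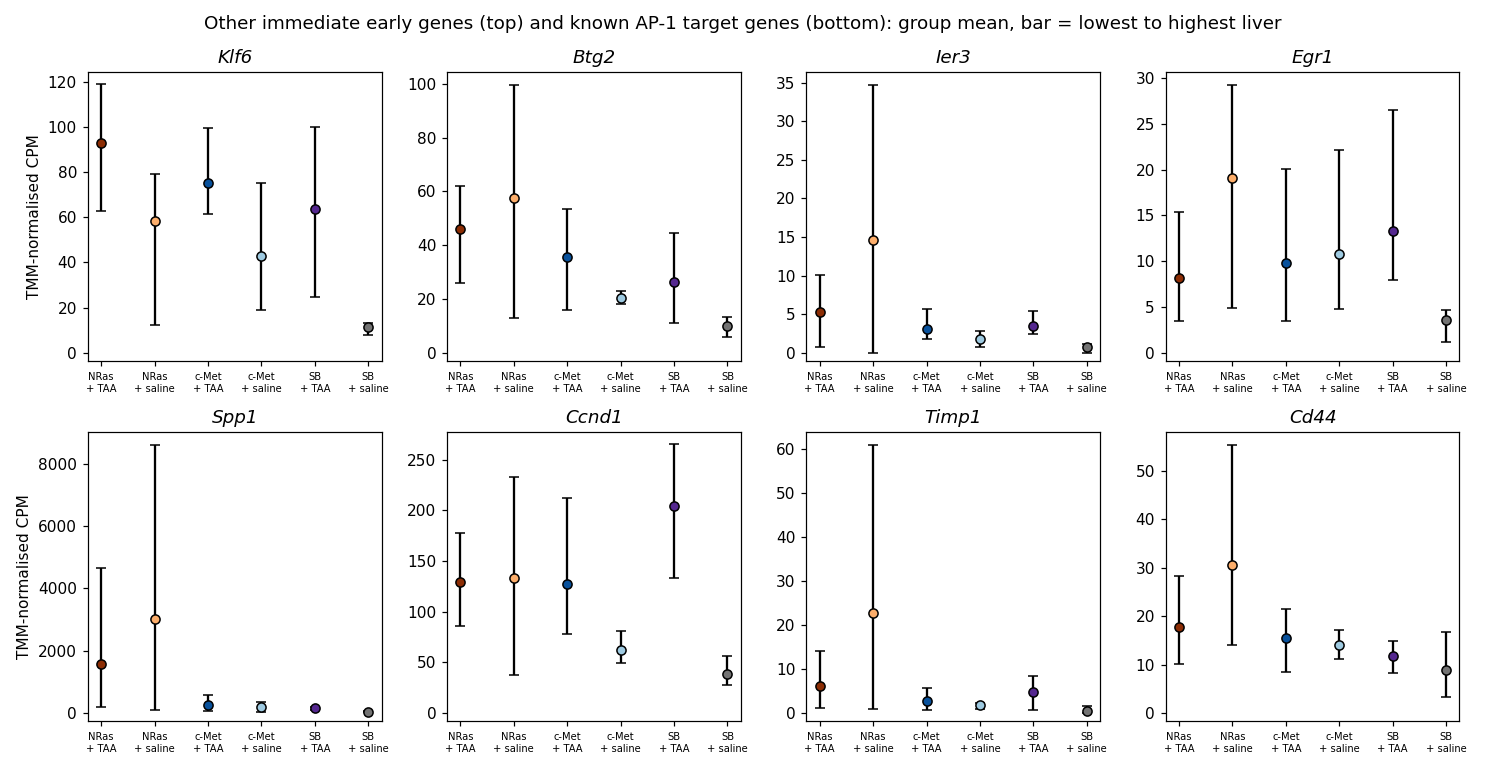
Group means of 4 other immediate early genes (top) and 4 known AP-1 target genes (bottom) in TMM-normalised CPM on linear axes, with bars from the lowest to the highest liver. SB + saline, at the right of each panel, has the lowest mean in all 8 panels, and the SB/AKT/NRas + saline bars are wide (Spp1 98.5 to 8582 CPM).

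Among 12 kinases of the ERK, JNK and p38 pathways, Mapk3, which encodes ERK1, was the only one called, in both SB/AKT/NRas groups. It averaged 17.2 ± 5.07 CPM in SB/AKT/NRas + TAA and 15.4 ± 4.73 CPM in SB/AKT/NRas + saline, against 7.97 ± 3.13 CPM in SB + TAA and 7.76 ± 1.54 CPM in SB + saline (SD). SB/AKT/NRas + TAA was called over both SB groups, at 1.11 ± 0.27 over SB + TAA and 1.15 ± 0.28 over SB + saline (edgeR adjusted p = 0.0259 and 0.00828). The call in SB/AKT/NRas + saline, at 1.0002 ± 0.29 (edgeR adjusted p = 0.0323), only just passed the fold threshold. That is 1 of 12 kinases in each of these comparisons. Over SB + saline, 5.92% of all genes were called in SB/AKT/NRas + TAA and 6.03% in SB/AKT/NRas + saline. Over SB + TAA, 1.24% of all genes were called in SB/AKT/NRas + TAA. Mapk3 averaged 13.3 ± 3.68 CPM in SB/AKT/c-Met + TAA (0.78 ± 0.30, edgeR adjusted p = 0.149). In SB/AKT/c-Met + saline it averaged 10.4 ± 0.64 CPM, and neither c-Met group was called.

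Immediate early and heat shock genes can also be induced while tissue is removed, so 8 heat shock genes were read in the same way. Their sum was 456 to 511 CPM in SB/AKT/NRas + saline, 439 to 495 CPM among SB/AKT/c-Met + saline livers and 546 to 593 CPM in SB + TAA, against 543 to 768 CPM in SB + saline. It was 494 to 634 CPM in SB/AKT/NRas + TAA and 497 to 628 CPM in SB/AKT/c-Met + TAA. Hspa1b was called lower in SB + TAA (-2.19 ± 0.64 on the log2 scale, edgeR adjusted p = 0.0386) and Hsph1 lower in SB/AKT/NRas + saline, by -1.05 ± 0.33 (adjusted p = 0.0464, edgeR). Of all genes, 1.44% and 1.32% were called lower in these comparisons, in the same order. The SB + saline livers were spread widely, from 1.71 to 19.7 CPM for Hspa1b and from 15.8 to 84.2 CPM for Hsph1. Hspb1 encodes a small heat shock protein. It was called higher in SB/AKT/c-Met + TAA than in SB + saline (1.04 ± 0.28, edgeR adjusted p = 0.0329), as were 2.31% of all genes. It averaged 23.2 ± 6.83 CPM there and 20.9 ± 5.26 CPM in SB/AKT/NRas + TAA, which was not called, against 11.2 ± 4.10 CPM in SB + saline (SD). Over SB + TAA, 1 of the 8 genes was called higher in each of these 2 groups, where 0.397% (c-Met) and 1.24% (NRas) of all genes were called. Without SB + TAA replicate 4 Hspa1b was not called in SB + TAA, with or without SB/AKT/NRas + saline replicate 1. Leaving out that NRas liver alone, Hspa1b was called lower in SB/AKT/NRas + TAA and SB/AKT/NRas + saline as well, where 6.71% and 10.2% of all genes were called. The part of these genes in the AP-1 values was not tested.

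Cell type markers were summed in each liver. In SB/AKT/c-Met + saline, where 0.619% of all genes were called, no macrophage, neutrophil, stellate cell, hepatocyte, bile duct or endothelial marker was called by edgeR. Of 7 T and NK cell markers, 1 was called higher there, where 0.578% of all genes were. They summed to 7.86 to 20.6 CPM in SB/AKT/c-Met + saline, against 3.00 to 6.01 CPM in SB + saline. Macrophage markers (8 genes, none at 0 in any group) summed to 296 to 620 CPM in SB/AKT/NRas + TAA, 320 to 495 CPM in SB/AKT/NRas + saline, 320 to 552 CPM in SB/AKT/c-Met + TAA, 194 to 403 CPM among SB/AKT/c-Met + saline livers and 350 to 403 CPM in SB + TAA, against 157.5 to 324 CPM in SB + saline. Neutrophil markers (7 genes) summed to 15.4 to 97.6 CPM in SB/AKT/NRas + saline, against 3.85 to 13.3 CPM in SB + saline. Stellate cell and fibroblast markers (8 genes) summed to 241 to 854 CPM in SB/AKT/NRas + saline and 396 to 742 CPM in SB + TAA, against 198 to 326 CPM in SB + saline. Hepatocyte markers (8 genes) summed to 49202 to 85793 CPM in SB/AKT/NRas + saline and 64236 to 75424 CPM in SB/AKT/c-Met + saline, against 96314 to 113972 CPM in SB + saline. Endothelial markers (7 genes) summed to 117 to 145 CPM in SB/AKT/NRas + TAA and 106 to 139 CPM in SB + TAA, against 99.7 to 149 CPM in SB + saline. Which cells carried the AP-1 transcripts was not measured in these libraries, and the part of these markers in the results was not tested.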

How the data were processed

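Liver RNA from 24 mice, 1 library each, was primed from the poly(A) tail with molecular tags and sequenced on a NextSeq instrument. The authors aligned reads with STAR to GRCm38 with human NRAS and MET added, deduplicated by tag with Picard and Samtools in RNAsik, and ran featureCounts 1.6.4 on the forward strand with a minimum mapping quality of 10. What the authors deposited are raw gene counts. Whether duplicates were removed or only marked before counting could not be read from the count file. How evenly reads cover transcripts was not examined, and levels were compared within a gene only.

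Genes reaching 0.5 CPM in 2 or more livers were kept (19381 of 53467). After TMM scaling, 1 quasi-likelihood model of 6 group means was fitted in edgeR 4.0.16 (R 4.3.3), with 13 contrasts and an F test, each adjusted over all genes by Benjamini-Hochberg. The steps were first tested on simulated data. Alternatives were limma-voom (limma 3.58.1), DESeq2 1.42.0, other scalings and filters, robust estimation, a replicate block and leaving out each liver. Leaving out both SB + TAA replicate 4 and replicate 1 of SB/AKT/NRas + saline was added after seeing the data, as were the list counts without either.

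The AP-1 members and the gene lists were chosen with earlier results of these data known. By rule, the genes named beside the members were, in each list, up to 4 called genes by smallest F test p, and the 3 genes most correlated with any member that was called and averaged at least 5 CPM, which only Jun did. Klf4, Ier5 and Ccl2 are named outside that rule, after their values were seen, and 1 called target gene is not reported here by name.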

Additional observations from a re-analysis of the deposited data

Results flagged for a closer look

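Within groups of 4 or 5 livers, 47 groups of values of the 10 genes were screened for 1 liver far from the rest, and 2 were found. For normally spread values, chance alone gives about 1 in 20 groups. That rate does not hold near 0, because a group of 4 with counts in 1 liver alone is always flagged. Both groups found are of that kind. Fosl1 was at 1.76 CPM (5 counts) in SB/AKT/c-Met + TAA replicate 4 and had no count in the other 3 livers of that group. Fosb was at 0.336 CPM in SB + TAA replicate 1, which is 1 count, and had none in the other 3.

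The effect of TAA on 2 known AP-1 target genes differed between SB/AKT/NRas livers and SB livers by the edgeR test of that difference. For Ccnd1 the difference was -2.48 ± 0.50 on the log2 scale (edgeR adjusted p = 0.0162), with means of 129.5 CPM in SB/AKT/NRas + TAA and 133 CPM in SB/AKT/NRas + saline, and of 204 CPM in SB + TAA and 38.2 CPM in SB + saline. It was called as well without SB + TAA replicate 4, without SB/AKT/NRas + saline replicate 1 and without both. For Ccl2 the difference was -4.14 ± 0.95 (edgeR adjusted p = 0.0322), with means of 7.02 CPM in SB/AKT/NRas + TAA and 17.1 CPM in SB/AKT/NRas + saline, and of 16.7 CPM in SB + TAA and 2.21 CPM in SB + saline. Ccl2 was not called without SB + TAA replicate 4 alone, and was called without both livers.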

How the results depend on the processing

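No fold change of a called AP-1 gene reversed. Counts of called genes moved as follows. In SB + TAA over SB + saline the 2 calls became 4 with library size alone, 4 with no filter, 1 with filterByExpr and 1 (Fosl1) with both SB + TAA replicate 4 and replicate 1 of SB/AKT/NRas + saline left out. In SB/AKT/c-Met + saline, 1 became 2 with library size alone. In SB/AKT/NRas + saline, 3 became 8 with library size alone and 5 without both livers. Of all genes, 10.7% were called there without both livers, against 6.03% with all livers. With no filter, 1 member (Fosl1) was called for SB/AKT/c-Met + TAA over SB + TAA, 1 (Fosl1) for SB/AKT/NRas + TAA over SB + TAA, and 1 (Jun) for the difference between TAA effects in SB/AKT/c-Met. SB/AKT/NRas + saline over SB/AKT/c-Met + saline gave 1 (Maff) without both livers. The difference between TAA effects in SB/AKT/NRas gave 1 with DESeq2, 1 with library size alone, 3 with no filter and 2 without both livers (2.81% of all genes called). The F test gave 1 with limma-voom, 6 with library size alone, 5 with no filter and 4 with robust estimation, against 2. The cause was not tested, and the shares of all genes called with the other tools, scalings and filters are not given here. Library size alone put the median log2 fold change of all genes over SB + saline at 0.28 to 0.50.

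With 1 liver left out, counts ranged from 0 to 4 in SB + TAA, 0 to 1 in SB/AKT/c-Met + saline, 2 to 5 in SB/AKT/NRas + saline, 1 to 2 in SB/AKT/c-Met + TAA and 2 to 2 in SB/AKT/NRas + TAA, all over SB + saline. They ranged from 0 to 1 in SB/AKT/NRas + TAA over SB + TAA, 0 to 2 for the difference between TAA effects in SB/AKT/NRas and 1 to 5 in the F test (5 without SB/AKT/NRas + saline replicate 1, 4 without SB/AKT/NRas + TAA replicate 3, 1 without SB + TAA replicate 1 or 4), and stayed at 0 elsewhere. The highest counts in SB + TAA, SB/AKT/NRas + saline and that difference were reached without SB/AKT/NRas + saline replicate 1. Of all genes, 4.96%, 10.2% and 4.44% were then called, in the same order. The count of 0 in SB + TAA was reached without its replicate 4, where 1.92% of all genes were called. Shares for the other livers left out are not given here. Livers with the same number in different groups did not deviate together (mean r = -0.00717 over 55 pairs, against 0.00211 over 184 pairs of different numbers), so the numbers were not taken to pair them. With the replicate block the F test gave 1 member (Jun) and no other count of called members moved. Depth limits Fosb, Fosl1 and Fos, with 7, 71 and 105 counts over all livers.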
